A study of Mus musculus with 12 samples.

Results

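The question was which genes accompany the surface antigen Sca1 in mouse dermal fibroblasts that already carry Dlk1. The 3 arrays titled Dlk1+Sca1+ were compared with the 3 titled Dlk1+Sca1-, which made 6 of the 12 arrays in the series. The mice were 2 days old, with the genotype given as wild type, and the cells were flow sorted from back skin after dispase and trypsin had freed the dermis and collagenase had digested it. The platform was the Affymetrix Mouse Gene 2.0 ST array, whose probe sets cover whole transcripts. The study describes reporter mice in which a nuclear green fluorescent protein follows Pdgfra, a receptor of fibroblasts, and fluorescent cells were sorted. It took Dlk1+Sca1- cells as reticular fibroblasts of the deeper, collagen-rich dermis and both Sca1+ populations, Dlk1+Sca1+ and Dlk1-Sca1+, as pre-adipocytes. The remaining population, titled CD26+, was gated as CD26+Sca1- and taken as papillary fibroblasts, which lie next to the epidermis.

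Fat cells of the skin arise from fibroblast precursors of the lower dermis and the fascia beneath it. Commitment passes through Pparg, a nuclear receptor that turns on genes for fatty acid uptake and storage, whereas Dlk1, a membrane protein related to the Notch ligands, restrains adipocyte differentiation. Sca1, the product of Ly6a, is a surface antigen of many mouse stem and progenitor cells, adipocyte precursors among them. Fibroblasts of the same dermis also form the condensates and papillae that direct hair growth, under the control of Wnt signalling from and to the epidermis.

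Values are log2 levels as deposited, listed in the order of replicates 1, 2 and 3. Differences are Dlk1+Sca1+ minus Dlk1+Sca1- with the standard error of the fit, and adjusted p-values come from limma with Benjamini-Hochberg adjustment over 22180 genes. The median level over all genes was 5.66, and 11 arrays were fitted because Dlk1-Sca1+ replicate 3 was left out, as the array that met the study's description of a faulty sort. Array medians of the 6 arrays lay between 5.42 and 5.51. Ly6a had no probe set with a single gene symbol and was not analysed here, so the Sca1 gate could not be checked on its own gene. The Dlk1 gate could. Dlk1 (chromosome 12, 109452485 to 109463336) measured 10.07, 10.23 and 10.09 on the Dlk1+Sca1+ arrays and 9.78, 10.11 and 9.90 on the Dlk1+Sca1- arrays, against means of 8.20 in Dlk1-Sca1+ and 8.57 in CD26+. Dlk1 ranges of the 2 Dlk1+ populations overlapped and the difference of 0.20 ± 0.13 was not called (adjusted p = 0.622). Pdgfra measured 8.99, 9.23 and 8.88 on the Dlk1+Sca1+ arrays and 8.64, 8.77 and 8.68 on the Dlk1+Sca1- arrays (adjusted p = 0.338), and the 10 fibroblast markers had mean levels of 11.43 to 11.51 on the Dlk1+Sca1+ arrays and 11.23 to 11.25 on the Dlk1+Sca1- arrays. Of these 10 markers 2 were called higher in Dlk1+Sca1+, Thy1 among them, and none lower, with 8 differences above 0. The count of rises was 1 in some alternatives.

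A total of 274 genes, 1.24% of those tested, differed at an adjusted p of 0.05, with 144 higher in Dlk1+Sca1+ (0.649%) and 130 lower (0.586%). The list counts below stand against these 2 shares. Over all genes 11100 differences were above 0 and 11080 below. Each of the 274 kept its 3 arrays of 1 population above the 3 of the other, which 15.2% of all genes did. The median size of the rises was 1.09 and that of the falls 1.22 on the log2 scale. Risen genes were brighter, with a median level of 8.20 against 7.05 for fallen genes. Of the rises, 84 were at least 1 in size and 12 at least 2, whereas 90 and 21 of the falls were. Dlk1+Sca1- replicate 3 was the lowest of its group in 99 of the 130 falls, so that it lay nearest to Dlk1+Sca1+ there. Over all 22180 genes it was the lowest in 7128. It was the highest of its group in 52 of the 144 rises. The call count depended on single arrays, with 99 calls when Dlk1+Sca1- replicate 1 was left out, and 149, 177 and 130 when Dlk1+Sca1+ replicates 1, 2 and 3 were. Because the samples were bulk RNA of sorted cells, fewer cells of a type and less RNA per cell cannot be told apart.

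**Figure D1:**
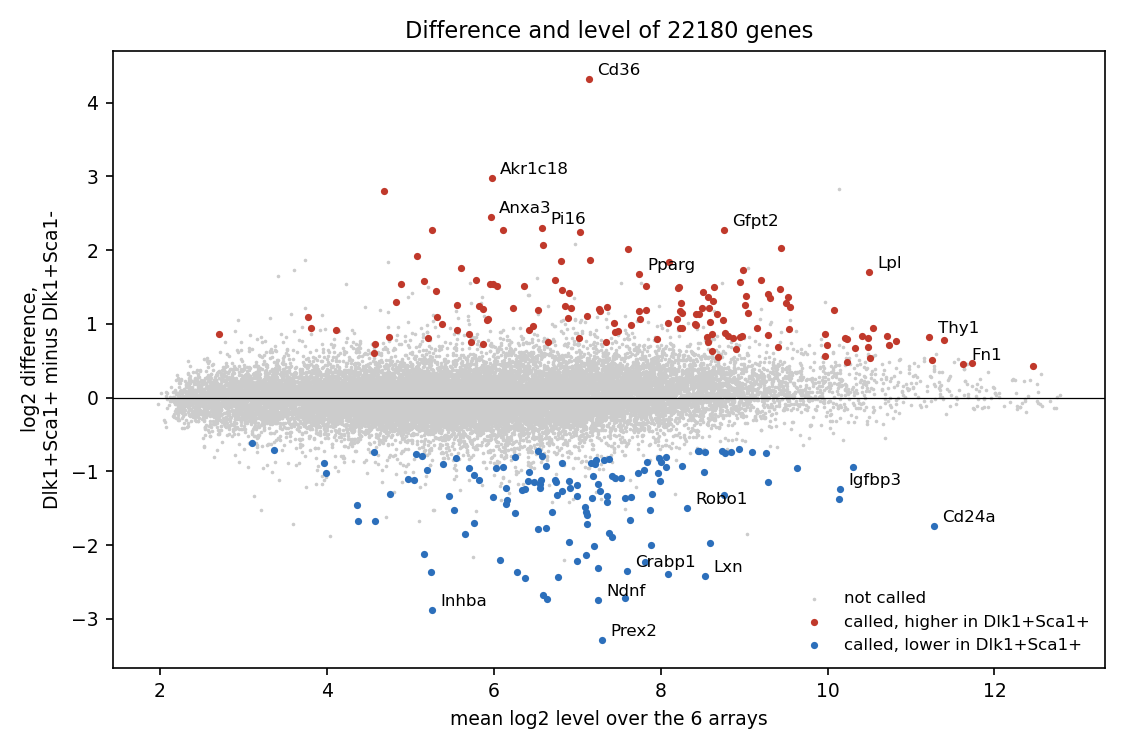
Log2 difference (Dlk1+Sca1+ minus Dlk1+Sca1-, vertical axis) against mean log2 level over the 6 arrays (horizontal axis) for 22180 genes. Red points are the 144 genes called higher, blue points the 130 called lower and grey points the rest, and Cd36 stands alone at 4.32.

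**Figure D2:**
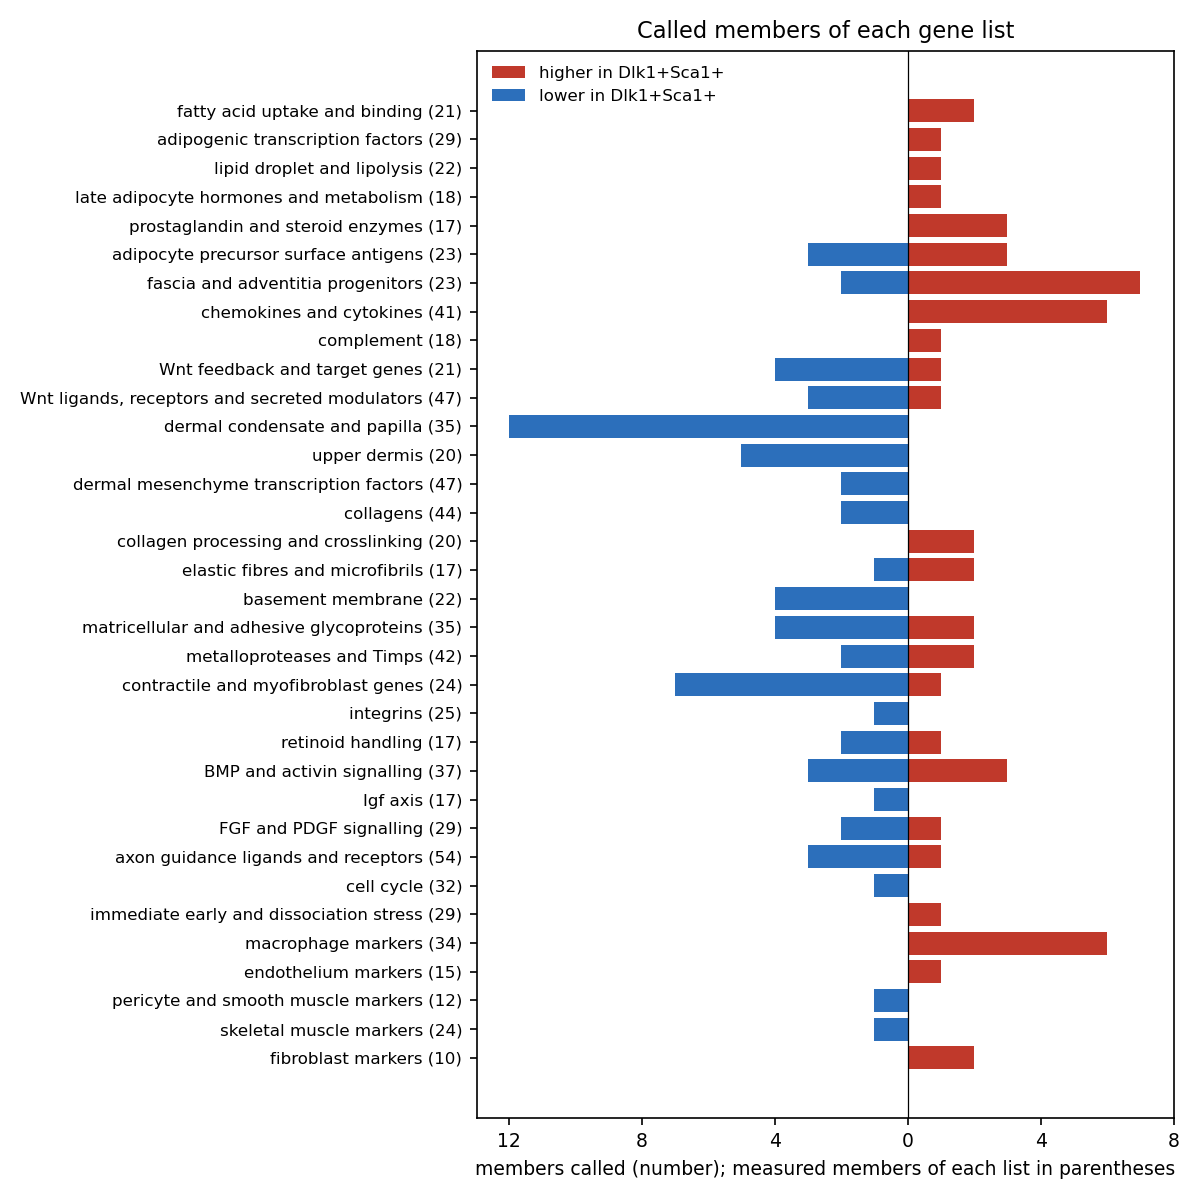
Number of members called higher (red, to the right) and lower (blue, to the left) in Dlk1+Sca1+ for each gene list with at least 1 call, with the number of measured members in parentheses. The longest bar to the left is that of the condensate and papilla list with 12 of 35, and the longest to the right that of the fascia and adventitia list with 7 of 23. Over all genes 0.649% were called higher and 0.586% lower.

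Among the largest rises were a fatty acid transporter, a steroid-metabolising enzyme and several secreted proteins. Cd36, a scavenger receptor that brings fatty acids into cells (chromosome 5, 17781690 to 17888959), measured 9.47, 8.89 and 9.54 on the Dlk1+Sca1+ arrays and 4.01, 5.34 and 5.58 on the Dlk1+Sca1- arrays. The difference was 4.32 ± 0.58, a 20-fold rise (adjusted p = 0.00657), and 3.31 log2 units separated the lowest Dlk1+Sca1+ array from the highest Dlk1+Sca1- array. Anxa3, a calcium-dependent membrane-binding annexin, measured 7.5, 6.92 and 7.15 on the Dlk1+Sca1+ arrays and 5.0, 5.05 and 4.19 on the Dlk1+Sca1- arrays (difference 2.44 ± 0.30, adjusted p = 0.00165). Bmper, a secreted binder of bone morphogenetic proteins, measured 7.78, 7.99 and 8.52 on the Dlk1+Sca1+ arrays and 6.26, 6.32 and 6.09 on the Dlk1+Sca1- arrays (difference 1.87 ± 0.20, adjusted p = 0.000607). Every Dlk1+Sca1+ array exceeded every Dlk1+Sca1- array, by at least 1.87 for Anxa3 and 1.46 for Bmper. Ifi204, an interferon-inducible gene, differed by 2.80 ± 0.5 (adjusted p = 0.0271), with 6.31, 6.67 and 5.28 on the Dlk1+Sca1+ arrays and 3.34, 3.32 and 3.18 on the Dlk1+Sca1- arrays. Its call was lost without any 1 of Dlk1+Sca1- replicates 1, 2 and 3 or Dlk1+Sca1+ replicates 1 and 2 (adjusted p from 0.0748 to 0.097).

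The largest falls were of a signalling regulator, secreted factors and surface receptors. Prex2, which activates the small GTPase Rac (chromosome 1, 10993273 to 11303683), measured 5.54, 5.95 and 5.49 on the Dlk1+Sca1+ arrays and 9.35, 9.41 and 8.08 on the Dlk1+Sca1- arrays, a 9.75-fold fall (difference -3.29 ± 0.34, adjusted p = 0.000678). Ndnf, a secreted growth factor, measured 6.17, 5.63 and 5.82 on the Dlk1+Sca1+ arrays and 8.91, 9.03 and 7.92 on the Dlk1+Sca1- arrays (difference -2.75 ± 0.26, adjusted p = 0.000293). The nearest arrays of the 2 populations lay 2.13 apart for Prex2 and 1.75 for Ndnf, and in both Dlk1+Sca1- replicate 3 was the lowest of its group. Lxn, which encodes the carboxypeptidase inhibitor latexin, measured 7.61, 7.29 and 7.05 on the Dlk1+Sca1+ arrays and 9.78, 9.76 and 9.67 on the Dlk1+Sca1- arrays (difference -2.42 ± 0.18, adjusted p = 5.80e-05). Lrrn1, a leucine-rich repeat membrane protein of neurons, fell by 5.43-fold (difference -2.44 ± 0.28, adjusted p = 0.00117). Tfap2c, a transcription factor, measured 4.02, 4.40 and 3.79 on the Dlk1+Sca1+ arrays and 6.79, 7.09 and 5.42 on the Dlk1+Sca1- arrays (difference -2.37 ± 0.36, adjusted p = 0.00722), so that its Dlk1+Sca1+ arrays lay below the median gene and 2 of its Dlk1+Sca1- arrays above it. Ednrb, an endothelin receptor known for its role in melanocytes, measured 5.82, 6.60 and 6.23 on the Dlk1+Sca1+ arrays and 9.63, 9.51 and 7.67 on the Dlk1+Sca1- arrays (difference -2.72 ± 0.46, adjusted p = 0.018). The Ednrb call was lost without any 1 of Dlk1+Sca1- replicates 1 and 2 or Dlk1+Sca1+ replicates 1 and 3, and with only the 6 arrays compared (adjusted p from 0.0588 to 0.0758).

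**Figure D3:**
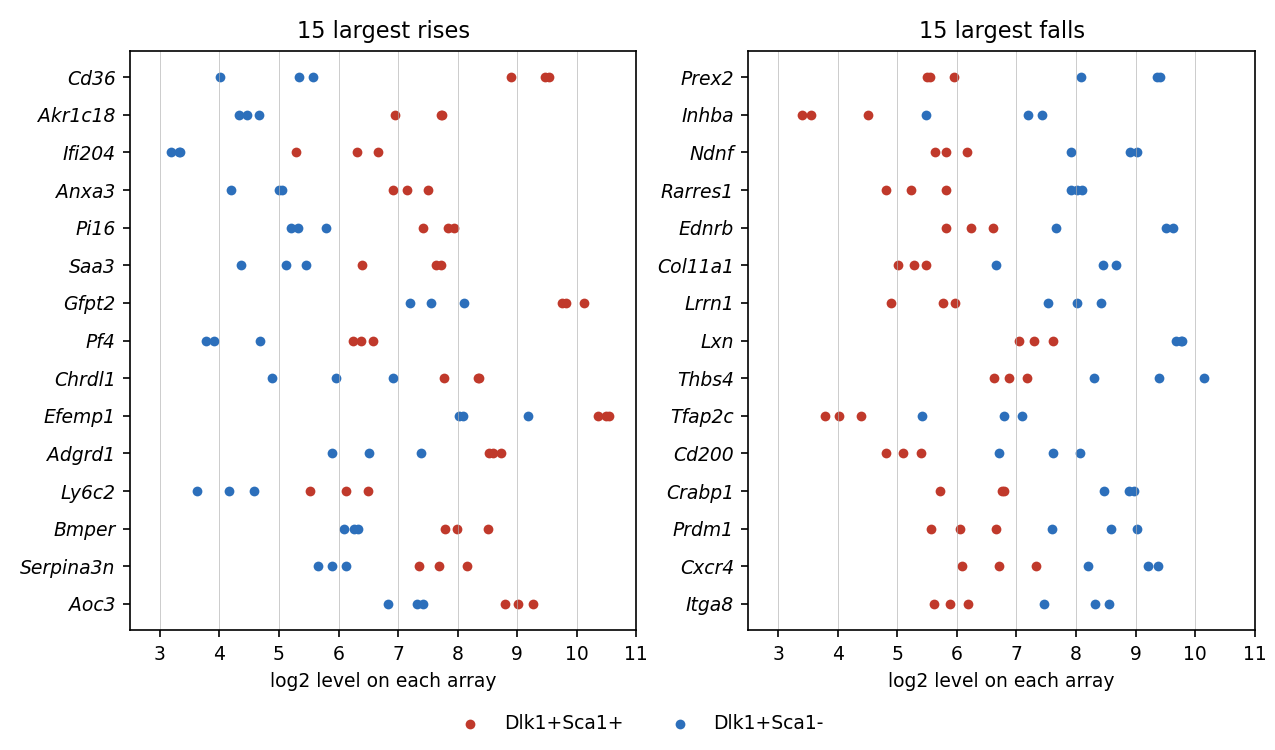
Log2 level on each array (horizontal axis) for the 15 largest rises (left) and the 15 largest falls (right), 1 gene per line. Red points are the 3 Dlk1+Sca1+ arrays and blue points the 3 Dlk1+Sca1- arrays. The genes were drawn from those whose arrays did not overlap, so the colours stand apart in each by selection.

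Genes of fatty acid uptake and of the adipocyte programme were higher in only a few members of each list. Of 21 measured genes for fatty acid uptake and binding, 2 rose, Cd36 and Lpl, and none fell, with a median difference of 0.29 against 0.00 over all genes. Lpl, the lipase that frees fatty acids from circulating lipoproteins, measured 11.40, 11.10 and 11.55 on the Dlk1+Sca1+ arrays and 9.79, 9.0 and 10.17 on the Dlk1+Sca1- arrays. It was the brightest called gene of the list and rose 3.24-fold (difference 1.70 ± 0.31, adjusted p = 0.0282). Of 29 adipogenic transcription factors only Pparg was called (chromosome 6, 115360879 to 115490404), at 8.83, 8.56 and 8.35 on the Dlk1+Sca1+ arrays and 6.69, 6.72 and 7.32 on the Dlk1+Sca1- arrays (difference 1.67 ± 0.27, adjusted p = 0.00887). Its partner Cebpa measured 7.88, 7.64 and 7.30 on the Dlk1+Sca1+ arrays and 7.26, 6.83 and 7.0 on the Dlk1+Sca1- arrays, a difference of 0.57 ± 0.24 that was not called (adjusted p = 0.374), although its arrays did not overlap. The Lpl call was lost without any 1 of Dlk1+Sca1- replicate 1, Dlk1+Sca1+ replicates 1, 2 and 3 or CD26+ replicate 1, and after quantile normalisation (adjusted p from 0.0519 to 0.102). That of Pparg was lost without Dlk1+Sca1- replicate 1 (adjusted p = 0.0521).

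Lipid storage genes gave 1 call among 22 and late adipocyte genes 1 among 18. Plin1, which coats the lipid droplets of adipocytes, measured 7.54, 7.30 and 7.99 on the Dlk1+Sca1+ arrays and 5.90, 6.09 and 6.57 on the Dlk1+Sca1- arrays (difference 1.42 ± 0.28, adjusted p = 0.0279). Plin2, a droplet coat protein of many cell types, measured 7.60, 7.88 and 8.05 on the Dlk1+Sca1+ arrays and 7.21, 6.86 and 7.20 on the Dlk1+Sca1- arrays and was not called (difference 0.75 ± 0.18, adjusted p = 0.0615). Rbp4, the carrier of retinol in blood, rose from 8.01, 7.82 and 8.67 to 10.02, 9.40 and 9.81 (difference 1.57 ± 0.29, adjusted p = 0.0206). Fabp4, the adipocyte carrier of fatty acids, had a large but uneven difference. It measured 11.59, 11.31 and 11.75 on the Dlk1+Sca1+ arrays and 7.20, 9.03 and 9.94 on the Dlk1+Sca1- arrays, so that the Dlk1+Sca1- arrays differed widely among themselves, and the difference of 2.82 ± 0.80 was not called (adjusted p = 0.178). Adipoq, the adipocyte hormone adiponectin, stayed near the median gene at 5.74, 6.0 and 5.93 on the Dlk1+Sca1+ arrays and 5.56, 5.54 and 5.75 on the Dlk1+Sca1- arrays (adjusted p = 0.532). The call of Plin1 was lost without any 1 of Dlk1+Sca1- replicates 1 and 2 or Dlk1+Sca1+ replicates 1 and 3, and with all 12 arrays (adjusted p from 0.0754 to 0.131). Rbp4 lost its call without any 1 of Dlk1+Sca1- replicates 1 and 2 or Dlk1+Sca1+ replicates 1 and 3 (adjusted p from 0.0724 to 0.0987). The calls of late adipocyte genes numbered 2 without Dlk1+Sca1- replicate 3, and those of lipid storage genes 2 with the replicate block and with the dimmest genes left out.

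Trarg1, Xdh and Fabp9 were chosen after their values were seen, and Aoc3 by its size. Trarg1, which takes part in glucose transporter traffic in adipocytes, measured 7.98, 7.72 and 7.89 on the Dlk1+Sca1+ arrays and 6.78, 6.59 and 6.60 on the Dlk1+Sca1- arrays (difference 1.21 ± 0.19, adjusted p = 0.00716). Xdh, the purine-degrading enzyme xanthine dehydrogenase, measured 6.46, 6.47 and 6.53 on the Dlk1+Sca1+ arrays and 4.70, 5.06 and 4.42 on the Dlk1+Sca1- arrays (difference 1.76 ± 0.20, adjusted p = 0.00106). Fabp9, another fatty acid binding protein, measured 5.49, 5.59 and 5.36 on the Dlk1+Sca1+ arrays and 4.46, 3.85 and 4.22 on the Dlk1+Sca1- arrays (difference 1.30 ± 0.18, adjusted p = 0.0031), a rise among dim values. Aoc3, an amine oxidase of adipocytes and smooth muscle and 1 of the 15 largest rises, measured 9.02, 8.80 and 9.26 on the Dlk1+Sca1+ arrays and 6.83, 7.31 and 7.42 on the Dlk1+Sca1- arrays (difference 1.84 ± 0.34, adjusted p = 0.0234). The Aoc3 call was lost without any 1 of Dlk1+Sca1- replicates 1 and 2 or Dlk1+Sca1+ replicates 1, 2 and 3, and with all 12 arrays (adjusted p from 0.0524 to 0.112).

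**Figure D4:**
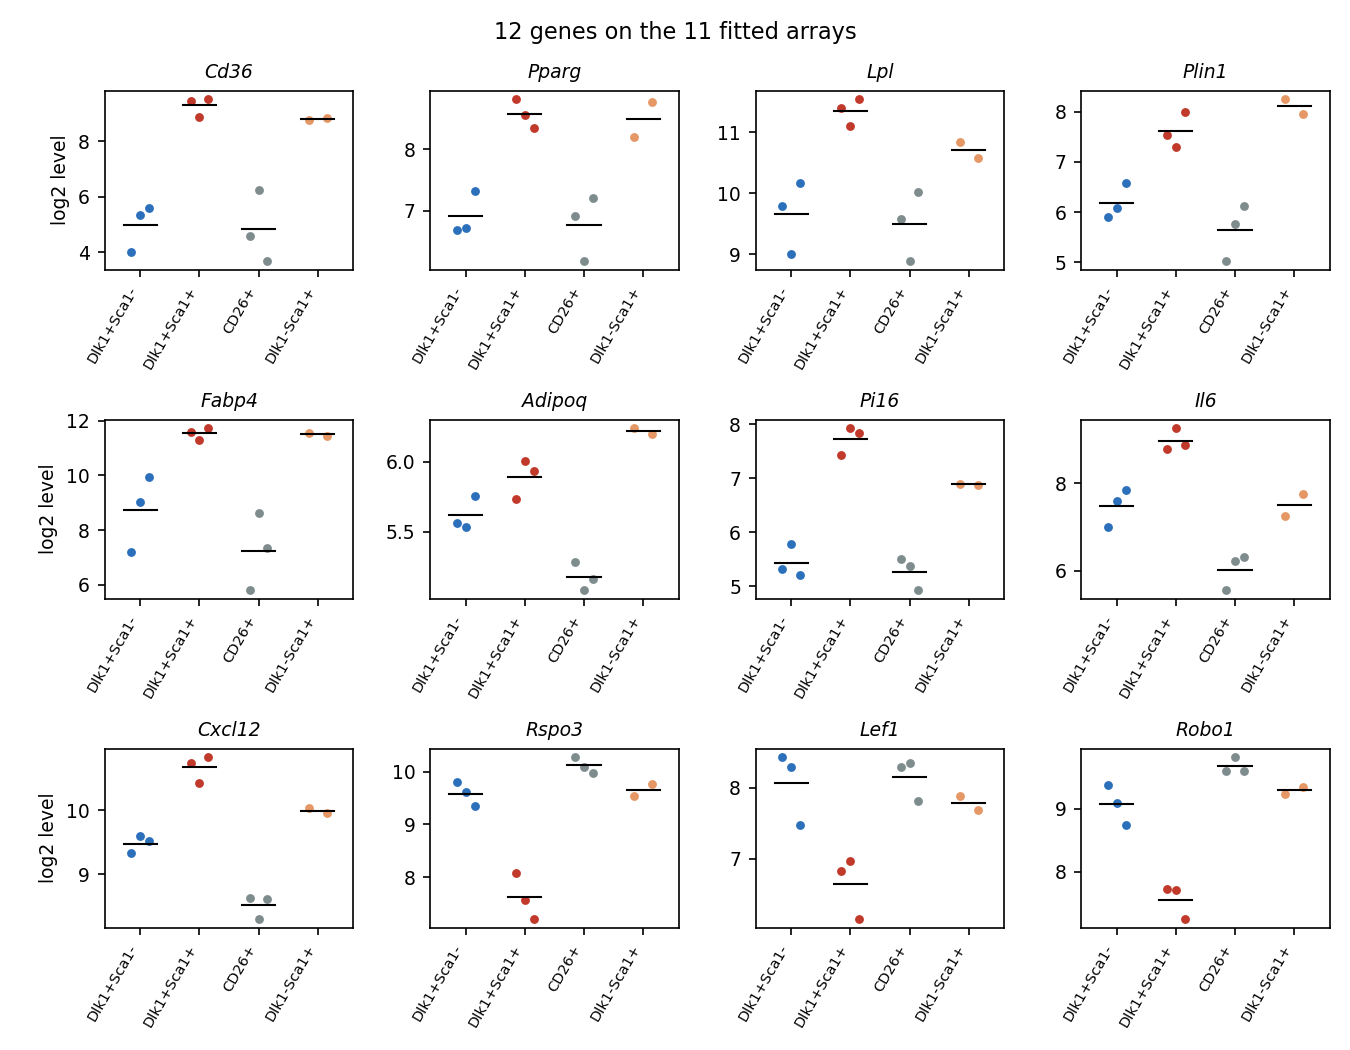
Log2 level (vertical axis, scaled per panel and not starting at 0) of 12 genes on the 11 fitted arrays, by population. Points are arrays and bars are means. Cd36, Pparg, Plin1 and Fabp4 are high in both Sca1+ populations, whereas Rspo3, Lef1 and Robo1 are lowest in Dlk1+Sca1+.

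Prostaglandin and steroid genes rose in 3 of 17 members, Akr1c18, Ptgs2 and Ptgfr, and fell in none, with a median difference of 0.27. Akr1c18, a hydroxysteroid dehydrogenase that inactivates progesterone (chromosome 13, 4132615 to 4150646), measured 7.73, 6.94 and 7.73 on the Dlk1+Sca1+ arrays and 4.67, 4.46 and 4.32 on the Dlk1+Sca1- arrays, a 7.9-fold rise (difference 2.98 ± 0.22, adjusted p = 5.80e-05). The nearest arrays of the 2 populations were 2.27 log2 units apart. Ptgs2, the inducible cyclooxygenase, measured 9.91, 10.03 and 9.63 on the Dlk1+Sca1+ arrays and 8.08, 8.98 and 7.33 on the Dlk1+Sca1- arrays (difference 1.73 ± 0.34, adjusted p = 0.0329). Ptgfr, the receptor for prostaglandin F2 alpha, measured 9.26, 9.05 and 9.24 on the Dlk1+Sca1+ arrays and 8.12, 7.45 and 8.34 on the Dlk1+Sca1- arrays (difference 1.21 ± 0.24, adjusted p = 0.0315). Ptgs2 lost its call without any 1 of Dlk1+Sca1- replicate 1, Dlk1+Sca1+ replicates 1, 2 and 3 or CD26+ replicate 1, and with only the 6 arrays compared (adjusted p from 0.0565 to 0.131). Ptgfr lost it without any 1 of Dlk1+Sca1- replicates 1 and 2, Dlk1+Sca1+ replicates 1, 2 and 3 or CD26+ replicate 1, and with only the 6 arrays compared and after quantile normalisation (adjusted p from 0.0546 to 0.109).

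Surface antigens used to sort adipocyte precursors split evenly, with 3 of 23 higher, Thy1, Cd34 and Vcam1, and 3 lower, Cd24a, Cd200 and Mcam. Thy1, known as CD90, measured 11.58, 11.58 and 11.73 on the Dlk1+Sca1+ arrays and 10.88, 10.86 and 10.67 on the Dlk1+Sca1- arrays (difference 0.83 ± 0.11, adjusted p = 0.00261). Cd34, a sialomucin of progenitor cells, measured 11.32, 11.04 and 11.26 on the Dlk1+Sca1+ arrays and 10.21, 10.58 and 10.53 on the Dlk1+Sca1- arrays (difference 0.77 ± 0.13, adjusted p = 0.00983). Both were bright in all 6 arrays and rose without overlap. Cd24a, a small surface glycoprotein, measured 10.90, 10.497 and 9.80 on the Dlk1+Sca1+ arrays and 12.28, 12.24 and 11.91 on the Dlk1+Sca1- arrays (difference -1.75 ± 0.23, adjusted p = 0.00369), and its highest Dlk1+Sca1+ array lay 1.01 below its lowest Dlk1+Sca1- array. Cd200, an immunoglobulin-family protein, measured 4.82, 5.39 and 5.10 on the Dlk1+Sca1+ arrays and 7.61, 8.07 and 6.71 on the Dlk1+Sca1- arrays (difference -2.36 ± 0.39, adjusted p = 0.011). The calls of Thy1 and Cd24a held under all 20 alternatives. Cd34 lost its call without any 1 of Dlk1+Sca1- replicate 1 or Dlk1+Sca1+ replicate 3, and with only the 6 arrays compared (adjusted p from 0.0503 to 0.0525). Vcam1 (difference 0.80 ± 0.17) lost it without any 1 of Dlk1+Sca1- replicates 1, 2 and 3, Dlk1+Sca1+ replicates 1, 2 and 3 or CD26+ replicate 3, and with only the 6 arrays compared, after quantile normalisation and with no mean trend or robust fitting (adjusted p from 0.0529 to 0.16). Mcam (difference -0.98 ± 0.22) lost it without any 1 of Dlk1+Sca1- replicates 1 and 2, Dlk1+Sca1+ replicates 1 and 3, Dlk1-Sca1+ replicates 1 and 2 or CD26+ replicates 1, 2 and 3, and with all 12 arrays, with only the 6 arrays compared, after median centring and with no mean trend or robust fitting (adjusted p from 0.0504 to 0.199). Cd200 lost it without any 1 of Dlk1+Sca1- replicate 1 or Dlk1+Sca1+ replicates 1 and 3, and with all 12 arrays (adjusted p from 0.0508 to 0.085).

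The list with the largest share of rises was that of fascia and adventitia progenitors, with 7 of 23 members higher, 2 lower and 21 differences above 0 (median 0.55). The shares were 30.4% higher and 8.7% lower, against 0.649% and 0.586% of all genes. Mean list levels were 7.56 to 7.62 on the Dlk1+Sca1+ arrays and 6.85 to 6.91 on the Dlk1+Sca1- arrays. Pi16, a secreted peptidase inhibitor that marks fibroblasts of fascia and vessel walls (chromosome 17, 29318796 to 29328903), measured 7.43, 7.94 and 7.84 on the Dlk1+Sca1+ arrays and 5.32, 5.79 and 5.21 on the Dlk1+Sca1- arrays (difference 2.30 ± 0.21, adjusted p = 0.000289). Gfpt2, which opens the hexosamine pathway, measured 9.81, 10.12 and 9.75 on the Dlk1+Sca1+ arrays and 7.56, 8.11 and 7.20 on the Dlk1+Sca1- arrays (difference 2.27 ± 0.22, adjusted p = 0.000374). The groups stood apart by 1.64 log2 units in Pi16 and 1.64 in Gfpt2. Pcolce2, an enhancer of procollagen cleavage, measured 6.70, 6.67 and 6.38 on the Dlk1+Sca1+ arrays and 5.52, 4.61 and 4.85 on the Dlk1+Sca1- arrays (difference 1.59 ± 0.23, adjusted p = 0.00431). Sema3c, a secreted guidance protein, measured 9.78, 9.27 and 9.83 on the Dlk1+Sca1+ arrays and 8.35, 8.84 and 8.24 on the Dlk1+Sca1- arrays (difference 1.15 ± 0.18, adjusted p = 0.00836), and this call was lost without Dlk1+Sca1- replicate 1, and with only the 6 arrays compared (adjusted p from 0.05 to 0.0532). The other rises were Anxa3, Efhd1 and Cmah. Against the direction of the list, Bmp7, a bone morphogenetic protein, fell from 8.78, 8.60 and 7.72 to 6.29, 7.0 and 6.14 (difference -1.89 ± 0.30, adjusted p = 0.00748), and Limch1 fell as well. Dpp4, which encodes CD26 and is a fascia marker in adult skin, measured 9.17, 9.40 and 9.10 on the Dlk1+Sca1+ arrays and 7.92, 8.30 and 9.20 on the Dlk1+Sca1- arrays, so that Dlk1+Sca1- replicate 3 reached the Dlk1+Sca1+ level. Its difference of 0.75 ± 0.26 was not called (adjusted p = 0.249), whereas without that array it was 1.11 and called (adjusted p = 0.00589).

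Among 41 measured chemokines and cytokines 6 rose (14.6%, against 0.649% of all genes), Ccl7, Cxcl2, Cxcl12, Il6, Ccl3 and Pf4. None fell, with 29 differences above 0 and a median of 0.15. Ccl7, a monocyte-attracting chemokine, measured 9.96, 9.97 and 10.07 on the Dlk1+Sca1+ arrays and 7.84, 8.69 and 8.69 on the Dlk1+Sca1- arrays (difference 1.59 ± 0.22, adjusted p = 0.00386). Cxcl12, the ligand of Cxcr4, measured 10.74, 10.43 and 10.84 on the Dlk1+Sca1+ arrays and 9.33, 9.59 and 9.52 on the Dlk1+Sca1- arrays (difference 1.19 ± 0.14, adjusted p = 0.00139). Neither gene's groups overlapped, with gaps of 1.27 and 0.84 log2 units. Il6, a cytokine of acute inflammation, measured 8.78, 9.27 and 8.87 on the Dlk1+Sca1+ arrays and 6.99, 7.58 and 7.85 on the Dlk1+Sca1- arrays (difference 1.5 ± 0.26, adjusted p = 0.0124). Cxcl2, a neutrophil-attracting chemokine, measured 9.52, 9.59 and 9.05 on the Dlk1+Sca1+ arrays and 7.57, 8.25 and 7.85 on the Dlk1+Sca1- arrays (difference 1.49 ± 0.24, adjusted p = 0.00928). Cxcl1 and Ccl2, close relatives of those named, were not called, with differences of 1.56 ± 0.48 (adjusted p = 0.2) and 0.94 ± 0.30 (adjusted p = 0.195), and in both Dlk1+Sca1- replicate 2 stood above the other arrays of its group. Cxcl1 was called without that array (difference 2.13, adjusted p = 0.0202) and with the replicate block (adjusted p = 0.00678). The count fell to 3 without Dlk1+Sca1- replicate 1 and was 10 with the replicate block. Il6 lost its call without any 1 of Dlk1+Sca1- replicate 1 or Dlk1+Sca1+ replicate 2 (adjusted p from 0.0574 to 0.0623). Cxcl2 lost it without Dlk1+Sca1- replicate 1 (adjusted p = 0.0521). Ccl3 lost it without any 1 of Dlk1+Sca1- replicates 1 and 2 or Dlk1+Sca1+ replicates 1 and 3, and with only the 6 arrays compared (adjusted p from 0.056 to 0.106).

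Saa3 and Serpina3n were 2 of the 15 largest rises. Saa3, a serum amyloid A protein, measured 7.64, 6.39 and 7.72 on the Dlk1+Sca1+ arrays and 5.45, 5.12 and 4.36 on the Dlk1+Sca1- arrays (difference 2.28 ± 0.35, adjusted p = 0.00836). Serpina3n, a secreted protease inhibitor, measured 8.16, 7.36 and 7.69 on the Dlk1+Sca1+ arrays and 5.89, 5.65 and 6.13 on the Dlk1+Sca1- arrays (difference 1.85 ± 0.38, adjusted p = 0.0383). Dlk1+Sca1+ replicate 2 was the lowest of its group in both. Chosen after their values were seen, Il1r1, the receptor for interleukin-1, measured 10.17, 9.77 and 10.01 on the Dlk1+Sca1+ arrays and 8.55, 8.65 and 8.68 on the Dlk1+Sca1- arrays (difference 1.35 ± 0.16, adjusted p = 0.0014), and Steap4, a metalloreductase, measured 9.21, 9.0 and 9.46 on the Dlk1+Sca1+ arrays and 7.82, 7.39 and 8.15 on the Dlk1+Sca1- arrays (difference 1.44 ± 0.22, adjusted p = 0.00657). Tnfaip6, a hyaluronan-binding protein also chosen in this way, measured 11.03, 11.18 and 11.19 on the Dlk1+Sca1+ arrays and 10.39, 10.43 and 10.07 on the Dlk1+Sca1- arrays (difference 0.84 ± 0.13, adjusted p = 0.00628). Serping1, the C1 inhibitor, was the only call among 18 complement genes, and none of 18 interferon response genes was called. The called Ifi204, described above as interferon-inducible, was not a member of that list. The Serping1 call was lost without any 1 of Dlk1+Sca1- replicates 1 and 3, Dlk1+Sca1+ replicates 1, 2 and 3 or CD26+ replicates 1 and 3, and with all 12 arrays, with only the 6 arrays compared, after quantile normalisation and with no mean trend or robust fitting (adjusted p from 0.0519 to 0.144). Serpina3n lost its call without any 1 of Dlk1+Sca1- replicates 1, 2 and 3, Dlk1+Sca1+ replicates 1, 2 and 3, Dlk1-Sca1+ replicates 1 and 2 or CD26+ replicate 1, and with all 12 arrays (adjusted p from 0.0561 to 0.136).

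The 250 bases before the transcription start of 5 of the risen genes are shown because motifs for the factors NF-kB and C/EBP lie in them. Sequences are from RefSeq on GRCm38.p6, each written 5′ to 3′ on the gene's strand, with the matches in capitals: NF-kB (GGG, then any 2 bases, then TTTCC) in the first 3 and C/EBP (TTGCNNAA) in the last 2. In Saa3 the C/EBP letters read on the opposite strand, so that the marked stretch is their reverse complement.
Il6 (chr5:30012864-30013113, plus strand): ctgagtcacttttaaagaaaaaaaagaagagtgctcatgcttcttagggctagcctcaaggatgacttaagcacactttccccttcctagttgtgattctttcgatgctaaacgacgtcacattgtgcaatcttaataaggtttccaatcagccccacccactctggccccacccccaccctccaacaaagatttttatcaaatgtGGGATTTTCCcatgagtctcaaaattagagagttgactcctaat
Cxcl2 (chr5:90903649-90903898, plus strand): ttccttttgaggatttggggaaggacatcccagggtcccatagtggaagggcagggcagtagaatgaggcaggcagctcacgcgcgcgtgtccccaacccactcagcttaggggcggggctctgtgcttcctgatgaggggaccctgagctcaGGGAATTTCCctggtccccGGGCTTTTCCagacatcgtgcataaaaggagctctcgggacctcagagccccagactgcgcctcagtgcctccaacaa
Serpina3n (chr12:104406458-104406707, plus strand): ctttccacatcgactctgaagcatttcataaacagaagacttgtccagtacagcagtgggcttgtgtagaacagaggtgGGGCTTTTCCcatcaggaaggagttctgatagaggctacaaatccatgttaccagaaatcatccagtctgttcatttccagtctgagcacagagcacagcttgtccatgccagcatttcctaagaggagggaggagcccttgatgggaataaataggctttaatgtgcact
Saa3 (chr7:46715677-46715926, minus strand): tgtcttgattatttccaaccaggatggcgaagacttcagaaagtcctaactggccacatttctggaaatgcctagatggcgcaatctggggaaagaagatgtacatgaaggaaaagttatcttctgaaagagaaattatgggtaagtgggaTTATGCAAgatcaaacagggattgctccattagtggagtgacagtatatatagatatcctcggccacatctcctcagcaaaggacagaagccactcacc
Plin1 (chr7:79732777-79733026, minus strand): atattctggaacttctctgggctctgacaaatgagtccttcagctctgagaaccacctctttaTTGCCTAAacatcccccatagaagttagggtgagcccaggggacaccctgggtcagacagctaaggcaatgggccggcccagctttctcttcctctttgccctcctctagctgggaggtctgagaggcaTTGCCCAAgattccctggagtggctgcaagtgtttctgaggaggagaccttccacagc

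These were 2 of 12 motifs searched on both strands in the first listed promoter of each gene, chosen after the values were seen. The NF-kB letters occurred in 1.36% of 16990 promoters of measured genes, in 5 of 103 promoters of risen genes (4.85%: Cxcl2, Il6, Lepr, Serpina3n and Steap4) and in 0 of 94 of fallen genes. The C/EBP letters occurred in 9.11% of all promoters, in 17.5% of those of risen genes and in 4.26% of those of fallen genes. The E-box form CATATG was in 2.65% of all promoters, 6.8% of risen and 4.26% of fallen genes, and the CRE letters TGACGTCA in 2.11%, 0 of 103 and 4.26%. The Wnt-factor letters CTTTGA were in 13.2% of all promoters, 13.6% of risen and 8.51% of fallen genes, and the AP-1 letters TGANTCA in 6.48%, 5.83% and 4.26%. In Il6 the NF-kB match began 44 bases before the start, in Cxcl2 97 and 78 bases, and in Serpina3n 171 bases. The C/EBP match of Saa3 began 99 bases before the start and those of Plin1 187 and 58 bases. A match is a run of letters and says nothing of binding, and the shares were not tested.

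Markers of macrophages also rose, and 1 of them, Pf4, is counted among the chemokines above as well. Of 34 macrophage markers 6 rose (17.6%, against 0.649% of all genes), Mrc1, Pf4, F13a1, Cbr2, Csf1r and Fcer1g. None fell and 29 differences were above 0, with list means of 5.31 to 5.53 on the Dlk1+Sca1+ arrays and 4.89 to 5.02 on the Dlk1+Sca1- arrays. Pf4, a chemokine of platelets and macrophages, measured 6.24, 6.57 and 6.37 on the Dlk1+Sca1+ arrays and 3.91, 3.78 and 4.68 on the Dlk1+Sca1- arrays (difference 2.27 ± 0.22, adjusted p = 0.000374). Mrc1, the mannose receptor, measured 6.0, 6.13 and 6.42 on the Dlk1+Sca1+ arrays and 4.90, 4.88 and 5.02 on the Dlk1+Sca1- arrays (difference 1.25 ± 0.15, adjusted p = 0.0014). Csf1r, the receptor on which macrophages depend, measured 6.10, 6.06 and 5.89 on the Dlk1+Sca1+ arrays and 5.0, 5.29 and 5.03 on the Dlk1+Sca1- arrays (difference 0.91 ± 0.17, adjusted p = 0.02). On the Dlk1+Sca1+ arrays all 3 lay between 5.89 and 6.57, little above the median gene. Adgre1, the F4/80 antigen, measured 5.88, 5.37 and 5.81 on the Dlk1+Sca1+ arrays and 4.94, 4.99 and 5.05 on the Dlk1+Sca1- arrays (adjusted p = 0.078), Ptprc, the common leukocyte antigen, 3.18, 3.30 and 3.57 on the Dlk1+Sca1+ arrays and 3.20, 3.07 and 3.15 on the Dlk1+Sca1- arrays (adjusted p = 0.652), and Cd68 7.41, 8.15 and 7.54 on the Dlk1+Sca1+ arrays and 7.42, 8.24 and 7.24 on the Dlk1+Sca1- arrays (adjusted p = 0.968), and none of the 3 was called. In all, 24 of the 34 markers lay below the median level. Their part in the rises of chemokines, Saa3 and Serpina3n was not tested. The macrophage count fell to 3 without Dlk1+Sca1- replicate 1, and Csf1r lost its call without any 1 of Dlk1+Sca1- replicate 1 or Dlk1+Sca1+ replicates 1 and 2, and with only the 6 arrays compared (adjusted p from 0.0536 to 0.0963). F13a1 lost it without any 1 of Dlk1+Sca1- replicate 1 or Dlk1+Sca1+ replicate 3, and with only the 6 arrays compared (adjusted p from 0.0508 to 0.0621). Fcer1g lost it without any 1 of Dlk1+Sca1- replicates 1 and 2, Dlk1+Sca1+ replicates 1, 2 and 3, Dlk1-Sca1+ replicates 1 and 2 or CD26+ replicates 1, 2 and 3, and with all 12 arrays, with only the 6 arrays compared and with the replicate block (adjusted p from 0.0526 to 0.169).

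Immediate early and dissociation stress genes moved in the same direction. Of 29 such genes 26 had differences above 0, against 11100 of all 22180 genes. The list means were 9.47 to 9.72 on the Dlk1+Sca1+ arrays and 8.98 to 9.46 on the Dlk1+Sca1- arrays, with a median difference of 0.40. Only Atf3, a stress-induced transcription factor, was called, at 10.67, 10.88 and 10.94 on the Dlk1+Sca1+ arrays and 9.86, 10.11 and 10.03 on the Dlk1+Sca1- arrays (difference 0.83 ± 0.11, adjusted p = 0.00285), while 2 were called without Dlk1+Sca1- replicate 2 and 3 with the replicate block. Dlk1+Sca1- replicate 3 was the lowest of its group in 21 of the 29, against 7128 of all 22180 genes. What part digestion and sorting had in the rises of Il6, Cxcl2 or Ptgs2 was not tested.

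Other rises outside the lists, those of Ly6e, Vegfd, Penk and Ugdh, were chosen after their values were seen and were called in every alternative run. Ly6e, a gene of the Ly6 family to which Ly6a belongs (chromosome 15, 74955025 to 74959904), measured 10.22, 10.17 and 10.12 on the Dlk1+Sca1+ arrays and 8.53, 8.60 and 8.95 on the Dlk1+Sca1- arrays (difference 1.48 ± 0.13, adjusted p = 0.000176). Ly6c2, a family member and 1 of the 15 largest rises, measured 6.5, 5.52 and 6.13 on the Dlk1+Sca1+ arrays and 4.59, 3.62 and 4.17 on the Dlk1+Sca1- arrays (difference 1.93 ± 0.35, adjusted p = 0.0218), and its call was lost without any 1 of Dlk1+Sca1+ replicates 1 and 3 or Dlk1+Sca1- replicate 2 (adjusted p from 0.0698 to 0.0907). Its neighbours in the family did not follow, with Ly6c1 at 3.16, 2.80 and 5.04 on the Dlk1+Sca1+ arrays and 3.18, 2.82 and 3.03 on the Dlk1+Sca1- arrays (adjusted p = 0.653) and Ly6i at 4.55, 3.88 and 5.15 on the Dlk1+Sca1+ arrays and 3.75, 3.86 and 4.07 on the Dlk1+Sca1- arrays (adjusted p = 0.395). Ly6c1 was high on Dlk1+Sca1+ replicate 3 alone. Members of this family are closely related in sequence, and cross-hybridisation between them, or from Ly6a, was not tested. Vegfd, a growth factor of lymphatic vessels, measured 10.22, 10.34 and 10.06 on the Dlk1+Sca1+ arrays and 8.86, 8.5 and 9.15 on the Dlk1+Sca1- arrays (difference 1.37 ± 0.19, adjusted p = 0.00386). Penk, which encodes enkephalin precursors, measured 9.14, 9.43 and 9.16 on the Dlk1+Sca1+ arrays and 8.05, 7.88 and 8.41 on the Dlk1+Sca1- arrays (difference 1.13 ± 0.16, adjusted p = 0.00369), and Ugdh, which makes the UDP-glucuronate needed for hyaluronan, measured 9.98, 10.10 and 10.34 on the Dlk1+Sca1+ arrays and 8.72, 8.77 and 9.08 on the Dlk1+Sca1- arrays (difference 1.28 ± 0.18, adjusted p = 0.00406).

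Genes of the dermal condensate and papilla, the fibroblast clusters of hair follicles, made the largest group of falls. Of 35 measured members 12 fell (34.3%, against 0.586% of all genes), none rose and 31 differences were below 0, with a median of -0.95. Trps1, a zinc finger repressor of hair follicle mesenchyme, measured 7.21, 6.62 and 6.82 on the Dlk1+Sca1+ arrays and 9.15, 8.86 and 8.66 on the Dlk1+Sca1- arrays (difference -2.0 ± 0.18, adjusted p = 0.000176). Rspo3, a secreted amplifier of Wnt signalling (chromosome 10, 29453106 to 29535867), measured 8.08, 7.57 and 7.19 on the Dlk1+Sca1+ arrays and 9.80, 9.60 and 9.34 on the Dlk1+Sca1- arrays (difference -1.97 ± 0.20, adjusted p = 0.000445). The nearest arrays of the groups were 1.45 apart in Trps1 and 1.27 in Rspo3. Alpl, the phosphatase used to stain papillae, measured 5.79, 6.28 and 5.70 on the Dlk1+Sca1+ arrays and 8.10, 8.25 and 7.29 on the Dlk1+Sca1- arrays (difference -1.96 ± 0.24, adjusted p = 0.00166). Itga8, an integrin subunit that binds nephronectin, measured 6.19, 5.88 and 5.62 on the Dlk1+Sca1+ arrays and 8.32, 8.55 and 7.46 on the Dlk1+Sca1- arrays (difference -2.22 ± 0.26, adjusted p = 0.00117), and Crabp1, which binds retinoic acid in the cytoplasm, measured 6.76, 6.79 and 5.72 on the Dlk1+Sca1+ arrays and 8.89, 8.97 and 8.47 on the Dlk1+Sca1- arrays (difference -2.35 ± 0.29, adjusted p = 0.00208). Sox18, a transcription factor of early papillae and vessels, measured 6.07, 6.10 and 5.95 on the Dlk1+Sca1+ arrays and 8.54, 8.55 and 7.45 on the Dlk1+Sca1- arrays (difference -2.14 ± 0.34, adjusted p = 0.00887). In Itga8, Alpl and Sox18 the lowest Dlk1+Sca1- value was that of replicate 3. Trps1 and Alpl were chosen after their values were seen. The Sox18 call was lost without Dlk1+Sca1- replicate 1 (adjusted p = 0.0515).

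Signalling genes of this list fell too. Inhba, a subunit of activin, measured 3.41, 4.5 and 3.56 on the Dlk1+Sca1+ arrays and 7.19, 7.42 and 5.48 on the Dlk1+Sca1- arrays (difference -2.88 ± 0.48, adjusted p = 0.0169). Prdm1, a repressor found in early papillary fibroblasts and in papillae, measured 6.66, 5.57 and 6.05 on the Dlk1+Sca1+ arrays and 9.02, 8.59 and 7.59 on the Dlk1+Sca1- arrays (difference -2.31 ± 0.38, adjusted p = 0.011). Cxcr4, the receptor of Cxcl12, measured 6.70, 7.32 and 6.08 on the Dlk1+Sca1+ arrays and 9.21, 9.38 and 8.19 on the Dlk1+Sca1- arrays (difference -2.22 ± 0.38, adjusted p = 0.0166), so that the receptor and its ligand moved in opposite directions. Bmp4, which measured 7.02, 7.29 and 6.15 on the Dlk1+Sca1+ arrays and 8.61, 8.84 and 7.54 on the Dlk1+Sca1- arrays, was not called (difference -1.51 ± 0.34, adjusted p = 0.0596). Dlk1+Sca1- replicate 3 was the lowest of its group in 29 of the 35 members, as in all 4 of these genes, against 7128 of all 22180 genes. The mean level of the list was 6.60 to 6.82 on the Dlk1+Sca1+ arrays and 7.32 to 7.99 on the Dlk1+Sca1- arrays. Leaving out that array gave 21 falls, whereas leaving out Dlk1+Sca1- replicate 1 gave 5 and Dlk1+Sca1+ replicate 1 gave 7. Inhba lost its call without any 1 of Dlk1+Sca1- replicates 1 and 2 or Dlk1+Sca1+ replicates 1 and 3, and with only the 6 arrays compared (adjusted p from 0.0536 to 0.0821). Prdm1 lost it without any 1 of Dlk1+Sca1- replicate 1 or Dlk1+Sca1+ replicate 3 (adjusted p from 0.0508 to 0.0519). Cxcr4 lost it without any 1 of Dlk1+Sca1- replicates 1 and 2 or Dlk1+Sca1+ replicates 1 and 3 (adjusted p from 0.0548 to 0.0822).

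Of 20 upper dermis markers 5 were lower, Prdm1, Apcdd1, Entpd1, Nkd2 and Tnfrsf19, and none higher (median -0.49). The lists share members, so these are not separate falls. Prdm1 is also counted in the papilla list, and Apcdd1, Nkd2 and Tnfrsf19 are also counted among the Wnt feedback genes below. Entpd1, the surface nucleotidase CD39, measured 5.78, 5.80 and 5.69 on the Dlk1+Sca1+ arrays and 7.37, 7.19 and 6.44 on the Dlk1+Sca1- arrays (difference -1.24 ± 0.21, adjusted p = 0.011). The means of the other populations were 8.12 in Dlk1-Sca1+ and 8.44 in CD26+. Leaving out Dlk1+Sca1- replicate 1 or 2 left 0 or 3 of the 5 calls, and leaving out Dlk1+Sca1+ replicate 1 or 3 left 2 or 1. With all 12 arrays 1 fell and with only the 6 compared 2 did, and without Dlk1+Sca1- replicate 3 a member rose. Entpd1 lost its call without any 1 of Dlk1+Sca1- replicate 1 or Dlk1+Sca1+ replicate 3, and with all 12 arrays and with only the 6 arrays compared (adjusted p from 0.0502 to 0.161).

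Wnt feedback and target genes fell in 4 of 21 members and rose in 1. Apcdd1, a membrane inhibitor of Wnt signalling, measured 8.48, 8.94 and 8.71 on the Dlk1+Sca1+ arrays and 10.18, 9.90 and 9.5 on the Dlk1+Sca1- arrays (difference -1.15 ± 0.20, adjusted p = 0.0115). Lef1, the transcription factor through which Wnt signals act, measured 6.82, 6.97 and 6.15 on the Dlk1+Sca1+ arrays and 8.44, 8.29 and 7.47 on the Dlk1+Sca1- arrays (difference -1.42 ± 0.27, adjusted p = 0.0234). Nkd2 and Tnfrsf19, both induced by Wnt, fell by 1.53 and 0.87 on the log2 scale. Lgr5, a receptor for R-spondins, went the other way at 9.92, 9.60 and 9.60 on the Dlk1+Sca1+ arrays and 8.22, 7.89 and 8.88 on the Dlk1+Sca1- arrays (difference 1.38 ± 0.23, adjusted p = 0.011). Axin2, the usual reporter gene of the pathway, measured 7.28, 7.31 and 7.23 on the Dlk1+Sca1+ arrays and 8.10, 7.65 and 7.67 on the Dlk1+Sca1- arrays and was not called (difference -0.53 ± 0.20, adjusted p = 0.284). Apcdd1 lost its call without any 1 of Dlk1+Sca1- replicate 1 or Dlk1+Sca1+ replicate 1, and with all 12 arrays (adjusted p from 0.0561 to 0.0726). Lef1 lost it without any 1 of Dlk1+Sca1- replicates 1 and 2 or Dlk1+Sca1+ replicates 1 and 3, and with all 12 arrays and with only the 6 arrays compared (adjusted p from 0.0561 to 0.156). Nkd2 lost it without any 1 of Dlk1+Sca1- replicates 1 and 2, Dlk1+Sca1+ replicates 1 and 3 or CD26+ replicates 1 and 3, and with all 12 arrays and with only the 6 arrays compared (adjusted p from 0.0504 to 0.144). Tnfrsf19 lost it without any 1 of Dlk1+Sca1- replicates 1 and 2 or Dlk1+Sca1+ replicates 1, 2 and 3, and with all 12 arrays and with only the 6 arrays compared (adjusted p from 0.0514 to 0.128). Lgr5 lost it without any 1 of Dlk1+Sca1- replicate 1 or Dlk1+Sca1+ replicate 1 (adjusted p from 0.0555 to 0.0621).

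Among 47 Wnt ligands, receptors and secreted modulators 3 fell, Rspo3, Wnt5a and Sostdc1, and 1 rose, with a median difference of -0.07 that was above 0 in some alternatives. Fzd4, a Wnt receptor, was the rise, at 9.56, 9.52 and 9.85 on the Dlk1+Sca1+ arrays and 8.35, 8.44 and 8.36 on the Dlk1+Sca1- arrays (difference 1.26 ± 0.15, adjusted p = 0.0014), and it was called in all 20 alternatives. Wnt5a, a ligand of the planar polarity branch, measured 4.54, 4.97 and 4.77 on the Dlk1+Sca1+ arrays and 6.47, 6.87 and 5.52 on the Dlk1+Sca1- arrays (difference -1.53 ± 0.29, adjusted p = 0.0234). Sostdc1, a secreted inhibitor of Wnt and bone morphogenetic proteins, measured 6.72, 7.21 and 6.78 on the Dlk1+Sca1+ arrays and 8.17, 8.27 and 7.57 on the Dlk1+Sca1- arrays (difference -1.09 ± 0.21, adjusted p = 0.0246). The falls numbered 5 with the replicate block and after quantile normalisation. Wnt5a lost its call without any 1 of Dlk1+Sca1- replicates 1 and 2 or Dlk1+Sca1+ replicates 1, 2 and 3, and with only the 6 arrays compared (adjusted p from 0.0516 to 0.107). Sostdc1 lost it without any 1 of Dlk1+Sca1- replicates 1 and 2 or Dlk1+Sca1+ replicates 1 and 3, and with only the 6 arrays compared (adjusted p from 0.0852 to 0.116).

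Genes of bone morphogenetic protein and activin signalling moved both ways, with 3 of 37 higher and 3 lower. The counts were 1 higher and 5 lower without Dlk1+Sca1- replicate 3, and 1 and 1 without Dlk1+Sca1- replicate 1 or Dlk1+Sca1+ replicate 1 or 3. The rises were of Bmper, of Id3, a target gene of the pathway, and of Chrdl1, a secreted antagonist at 8.36, 7.77 and 8.34 on the Dlk1+Sca1+ arrays and 4.88, 6.91 and 5.95 on the Dlk1+Sca1- arrays (difference 2.24 ± 0.44, adjusted p = 0.0329). The falls were of Bmp7, Inhba and Sostdc1, which comprise 2 ligand genes and an antagonist. Bmper and Bmp7 were called under all 20 alternatives. Chrdl1 lost its call without any 1 of Dlk1+Sca1- replicates 1 and 3, Dlk1+Sca1+ replicates 1, 2 and 3, Dlk1-Sca1+ replicates 1 and 2 or CD26+ replicate 1, and with all 12 arrays and with only the 6 arrays compared (adjusted p from 0.0574 to 0.124). Id3 (difference 0.84 ± 0.18) lost it without any 1 of Dlk1+Sca1- replicates 1 and 3, Dlk1+Sca1+ replicates 1, 2 and 3, Dlk1-Sca1+ replicates 1 and 2 or CD26+ replicates 1, 2 and 3, and with all 12 arrays, with only the 6 arrays compared, after quantile normalisation, with no mean trend or robust fitting and with array weights (adjusted p from 0.0532 to 0.19). The losses of Inhba and Sostdc1 are given above. Falls also numbered 5 with the replicate block, after quantile normalisation, with the dimmest genes left out and with array weights.

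Growth factor and retinoid genes gave few calls. Of 29 genes of FGF and PDGF signalling 1 rose and 2 fell. Fgfr2, a receptor of fibroblast growth factors, measured 9.25, 9.15 and 9.29 on the Dlk1+Sca1+ arrays and 8.5, 8.62 and 8.59 on the Dlk1+Sca1- arrays (difference 0.66 ± 0.11, adjusted p = 0.013), whereas the feedback inhibitors Dusp6 and Spred1 differed by -0.75 ± 0.15 and -0.74 ± 0.17. Igfbp3, a binder of insulin-like growth factors, was the only call among 17 genes of that axis, at 9.61, 9.54 and 9.44 on the Dlk1+Sca1+ arrays and 10.89, 10.995 and 10.42 on the Dlk1+Sca1- arrays (difference -1.24 ± 0.23, adjusted p = 0.0213). Of 17 retinoid genes Rbp4 rose while Crabp1 and Rarres1 fell. Rarres1, a retinoic acid-induced gene, measured 5.82, 4.80 and 5.22 on the Dlk1+Sca1+ arrays and 8.01, 8.10 and 7.92 on the Dlk1+Sca1- arrays, a 6.62-fold fall (difference -2.73 ± 0.23, adjusted p = 0.000176). None of 14 hedgehog genes was called, with Gli1, the target gene of the pathway, at 8.99, 9.05 and 8.76 on the Dlk1+Sca1+ arrays and 9.19, 9.01 and 8.80 on the Dlk1+Sca1- arrays (adjusted p = 0.93). None of 15 imprinted growth genes was called either, and among them Peg3 measured 12.04, 12.12 and 12.13 on the Dlk1+Sca1+ arrays and 11.75, 11.77 and 11.75 on the Dlk1+Sca1- arrays (adjusted p = 0.079). With the mean of probe sets 1 imprinted gene was called lower, and without Dlk1+Sca1- replicate 3 a gene of the insulin-like growth factor axis was called higher. Fgfr2 lost its call without any 1 of Dlk1+Sca1- replicate 1 or Dlk1+Sca1+ replicates 1 and 3, and with only the 6 arrays compared (adjusted p from 0.0542 to 0.0879). Dusp6 lost it without any 1 of Dlk1+Sca1- replicates 1 and 3, CD26+ replicates 1, 2 and 3 or Dlk1+Sca1+ replicates 2 and 3, and with all 12 arrays, with only the 6 arrays compared, with the mean of probe sets and with no mean trend or robust fitting (adjusted p from 0.053 to 0.214), and its difference was -0.49 with the mean of probe sets. Spred1 lost it without any 1 of Dlk1+Sca1- replicates 1 and 2, Dlk1+Sca1+ replicates 1, 2 and 3, Dlk1-Sca1+ replicates 1 and 2 or CD26+ replicates 1, 2 and 3, and with only the 6 arrays compared, after median centring and with no mean trend or robust fitting (adjusted p from 0.0528 to 0.203). Igfbp3 lost it without any 1 of Dlk1+Sca1- replicates 1 and 2 or Dlk1+Sca1+ replicates 1, 2 and 3, and with all 12 arrays (adjusted p from 0.0648 to 0.099).

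Of 54 axon guidance genes 3 receptors fell (5.56%, against 0.586% of all genes) and 1 ligand, Sema3c, rose (1.85%, against 0.649%). Robo1, a receptor for Slit proteins (chromosome 16, 72027518 to 73047491), measured 7.72, 7.71 and 7.25 on the Dlk1+Sca1+ arrays and 9.37, 9.09 and 8.73 on the Dlk1+Sca1- arrays (difference -1.5 ± 0.18, adjusted p = 0.00139). Unc5b, a receptor for netrins, measured 5.41, 5.41 and 5.57 on the Dlk1+Sca1+ arrays and 6.89, 7.08 and 6.59 on the Dlk1+Sca1- arrays (difference -1.39 ± 0.17, adjusted p = 0.0014). Both held under all alternatives. Robo2, a further Slit receptor, measured 8.65, 8.59 and 8.52 on the Dlk1+Sca1+ arrays and 9.42, 9.09 and 9.36 on the Dlk1+Sca1- arrays (difference -0.70 ± 0.12, adjusted p = 0.013), and lost its call without any 1 of Dlk1+Sca1- replicate 1 or Dlk1+Sca1+ replicate 3, and with all 12 arrays and with only the 6 arrays compared (adjusted p from 0.0641 to 0.115). Mef2c, a transcription factor of muscle and vessels chosen after its values were seen, measured 8.36, 7.97 and 7.99 on the Dlk1+Sca1+ arrays and 9.33, 9.41 and 9.51 on the Dlk1+Sca1- arrays (difference -1.31 ± 0.14, adjusted p = 0.000678), a gap of 0.97 between the groups.

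Matrix genes changed in selected members while the main fibrillar collagens did not pass the test. Col1a1 measured 12.35, 12.56 and 12.47 on the Dlk1+Sca1+ arrays and 12.25, 12.19 and 12.29 on the Dlk1+Sca1- arrays (difference 0.22 ± 0.08, adjusted p = 0.27). Of 44 collagens 2 fell, Col11a1 and Col8a1, and none rose, with a median difference of -0.05. Col11a1, a minor fibrillar collagen of cartilage and developing connective tissue, measured 5.47, 5.28 and 5.01 on the Dlk1+Sca1+ arrays and 8.46, 8.67 and 6.66 on the Dlk1+Sca1- arrays, a 6.39-fold fall (difference -2.68 ± 0.42, adjusted p = 0.00944). Dlk1+Sca1- replicate 3 lay well below the other arrays of its group. Pcolce, a procollagen processing enhancer like Pcolce2, measured 11.498, 11.53 and 11.498 on the Dlk1+Sca1+ arrays and 10.97, 11.18 and 10.84 on the Dlk1+Sca1- arrays (difference 0.52 ± 0.10, adjusted p = 0.0269). None of 16 small leucine-rich proteoglycans was called, with Dcn, decorin, at 12.45, 12.29 and 12.32 on the Dlk1+Sca1+ arrays and 12.09, 11.98 and 12.21 on the Dlk1+Sca1- arrays (adjusted p = 0.253). Col11a1 lost its call without any 1 of Dlk1+Sca1- replicate 1 or Dlk1+Sca1+ replicate 3, and with only the 6 arrays compared (adjusted p from 0.0506 to 0.0611). Col8a1 lost it without any 1 of Dlk1+Sca1- replicates 1 and 2, Dlk1+Sca1+ replicates 1, 2 and 3 or CD26+ replicate 1 (adjusted p from 0.0521 to 0.108). Pcolce lost it without any 1 of Dlk1+Sca1- replicate 1 or Dlk1+Sca1+ replicates 1, 2 and 3, and with only the 6 arrays compared, after quantile normalisation and with no mean trend or robust fitting (adjusted p from 0.0796 to 0.123). Without Dlk1+Sca1- replicate 1 or Dlk1+Sca1+ replicate 3 no collagen fell. Without Dlk1+Sca1- replicate 3 a proteoglycan was called higher.

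Elastic fibre genes gave 2 rises (11.8%) and 1 fall (5.88%) among 17, and basement membrane genes 4 falls among 22 (18.2%). Over all genes 0.649% were called higher and 0.586% lower. Efemp1, which encodes fibulin-3 (chromosome 11, 28853154 to 28926743), measured 10.49, 10.35 and 10.54 on the Dlk1+Sca1+ arrays and 8.09, 8.03 and 9.18 on the Dlk1+Sca1- arrays (difference 2.03 ± 0.26, adjusted p = 0.00285). Its Dlk1+Sca1+ arrays were close together, whereas Dlk1+Sca1- replicate 3 stood above the other arrays of its group. Smoc1, a calcium-binding protein of basement membranes, measured 6.0, 6.55 and 6.05 on the Dlk1+Sca1+ arrays and 8.5, 8.51 and 7.64 on the Dlk1+Sca1- arrays (difference -2.02 ± 0.24, adjusted p = 0.0014). Egflam, the dystroglycan ligand pikachurin, measured 6.07, 6.27 and 6.63 on the Dlk1+Sca1+ arrays and 7.79, 8.24 and 7.62 on the Dlk1+Sca1- arrays (difference -1.56 ± 0.21, adjusted p = 0.00353). Lamc3, a laminin chain, measured 5.89, 5.95 and 5.93 on the Dlk1+Sca1+ arrays and 7.61, 8.05 and 6.79 on the Dlk1+Sca1- arrays (difference -1.56 ± 0.28, adjusted p = 0.0157). The other falls were Agrn and Ltbp1 and the other rise was Hmcn1, with differences of -0.81 ± 0.18, -0.73 ± 0.16 and 0.63 ± 0.14. Agrn lost its call without any 1 of the 11 arrays, and with only the 6 arrays compared and after median centring (adjusted p from 0.0535 to 0.163). Ltbp1 lost it without any 1 of Dlk1+Sca1- replicates 1 and 2, Dlk1+Sca1+ replicates 1, 2 and 3, Dlk1-Sca1+ replicates 1 and 2 or CD26+ replicates 1, 2 and 3, and with all 12 arrays, with only the 6 arrays compared, with the replicate block, after median centring and with no mean trend or robust fitting (adjusted p from 0.0521 to 0.187). Hmcn1 lost it without any 1 of Dlk1+Sca1- replicates 1 and 2, Dlk1+Sca1+ replicates 1, 2 and 3, Dlk1-Sca1+ replicates 1 and 2 or CD26+ replicates 1, 2 and 3, and with all 12 arrays, with only the 6 arrays compared, after quantile normalisation and with no mean trend or robust fitting (adjusted p from 0.0516 to 0.155). Of Smoc1 and Egflam no alternative ended the call, and Lamc3 lost it without any 1 of Dlk1+Sca1- replicates 1 and 2 or Dlk1+Sca1+ replicates 1, 2 and 3, and with only the 6 arrays compared (adjusted p from 0.0507 to 0.0803).

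Adhesive glycoproteins of the matrix gave 2 rises and 4 falls among 35. Thbs1, thrombospondin-1, measured 10.75, 11.27 and 11.05 on the Dlk1+Sca1+ arrays and 10.03, 10.09 and 10.10 on the Dlk1+Sca1- arrays (difference 0.95 ± 0.14, adjusted p = 0.00406). Thbs4, of the same family, moved the other way at 6.88, 6.63 and 7.17 on the Dlk1+Sca1+ arrays and 9.40, 10.15 and 8.30 on the Dlk1+Sca1- arrays (difference -2.39 ± 0.38, adjusted p = 0.00944). Fn1, fibronectin, was bright throughout at 11.82, 11.83 and 11.89 on the Dlk1+Sca1+ arrays and 11.34, 11.53 and 11.33 on the Dlk1+Sca1- arrays (difference 0.45 ± 0.09, adjusted p = 0.0268). Spon1, a secreted protein of the spondin family, measured 5.80, 5.80 and 5.94 on the Dlk1+Sca1+ arrays and 7.13, 6.97 and 6.83 on the Dlk1+Sca1- arrays (difference -1.13 ± 0.16, adjusted p = 0.00441), and Sparcl1, an antiadhesive relative of Sparc, measured 9.96, 9.79 and 9.75 on the Dlk1+Sca1+ arrays and 10.88, 10.69 and 10.74 on the Dlk1+Sca1- arrays (difference -0.94 ± 0.13, adjusted p = 0.00406). Of 42 metalloproteases and their inhibitors Mmp19 and Adamts12 rose and Adamts18 and Adamts20 fell. Mmp19 measured 8.88, 8.90 and 8.88 on the Dlk1+Sca1+ arrays and 7.90, 7.16 and 7.75 on the Dlk1+Sca1- arrays (difference 1.29 ± 0.21, adjusted p = 0.00976), with the 3 Dlk1+Sca1+ arrays all but equal. The Thbs4 call was lost without Dlk1+Sca1- replicate 1, and with only the 6 arrays compared (adjusted p from 0.0515 to 0.0526). Fn1 lost its call without any 1 of Dlk1+Sca1- replicate 1 or Dlk1+Sca1+ replicates 1, 2 and 3, and with only the 6 arrays compared, after quantile normalisation and with no mean trend or robust fitting (adjusted p from 0.0685 to 0.19). Sparcl1 lost it with all 12 arrays (adjusted p = 0.101). Rises of the glycoproteins numbered 4 without Dlk1+Sca1- replicate 2 and with the replicate block. Adamts12 lost it without any 1 of Dlk1+Sca1- replicates 1, 2 and 3, Dlk1+Sca1+ replicates 1, 2 and 3 or CD26+ replicate 1, and with all 12 arrays, with only the 6 arrays compared, after quantile normalisation and with no mean trend or robust fitting (adjusted p from 0.052 to 0.146). Adamts20 lost it without any 1 of Dlk1+Sca1- replicates 1 and 2, Dlk1+Sca1+ replicates 1, 2 and 3, Dlk1-Sca1+ replicates 1 and 2 or CD26+ replicate 3, and with only the 6 arrays compared (adjusted p from 0.053 to 0.149). Adamts18 lost it without any 1 of Dlk1+Sca1- replicates 1 and 2, Dlk1+Sca1+ replicates 1, 2 and 3, Dlk1-Sca1+ replicates 1 and 2 or CD26+ replicates 1, 2 and 3, and with all 12 arrays, with only the 6 arrays compared, after median centring and with no mean trend or robust fitting (adjusted p from 0.0504 to 0.196).

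Contractile and myofibroblast genes fell in 7 of 24 members (29.2%, against 0.586% of all genes), Tagln, Cnn2, Actg2, Myl9, Tpm1, Tpm2 and Ltbp1, and rose in Thbs1 alone (median -0.24). Tagln, an actin-binding protein of smooth muscle, measured 6.46, 6.33 and 6.42 on the Dlk1+Sca1+ arrays and 7.64, 7.79 and 7.36 on the Dlk1+Sca1- arrays (difference -1.19 ± 0.18, adjusted p = 0.00599). Cnn2, a calponin, measured 6.81, 6.73 and 6.41 on the Dlk1+Sca1+ arrays and 8.13, 8.22 and 7.38 on the Dlk1+Sca1- arrays (difference -1.26 ± 0.23, adjusted p = 0.0153), and Tpm2, a tropomyosin, measured 7.51, 7.28 and 6.84 on the Dlk1+Sca1+ arrays and 8.46, 8.04 and 8.20 on the Dlk1+Sca1- arrays (difference -1.02 ± 0.18, adjusted p = 0.0136). Acta2, smooth muscle actin, measured 8.02, 8.28 and 8.04 on the Dlk1+Sca1+ arrays and 10.57, 10.55 and 8.78 on the Dlk1+Sca1- arrays, and was not called (difference -1.86 ± 0.41, adjusted p = 0.0606). Its Dlk1+Sca1- replicate 3 lay far below replicates 1 and 2. Tagln was called in all 20 alternatives, but the count of falls dropped to 1 on leaving out Dlk1+Sca1- replicate 1 or Dlk1+Sca1+ replicate 3, and to 2 on leaving out Dlk1+Sca1- replicate 2. It dropped to 3 when the array left out was replicate 1 or 2 of Dlk1+Sca1+ or of Dlk1-Sca1+, or CD26+ replicate 1, and to 4 when it was CD26+ replicate 2. It was 2 with only the 6 arrays compared, and 4 with all 12 and after median centring. Cnn2 lost its call without any 1 of Dlk1+Sca1- replicates 1 and 2 or Dlk1+Sca1+ replicate 3, and with only the 6 arrays compared (adjusted p from 0.058 to 0.0822). Tpm2 lost it without any 1 of Dlk1+Sca1- replicate 1 or Dlk1+Sca1+ replicate 3, and with only the 6 arrays compared (adjusted p from 0.0511 to 0.0879).

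Markers of other cells outside the fibroblast gate mostly gave no call. None of 12 lymphocyte, 10 mast cell, 13 keratinocyte, 11 Schwann cell and melanocyte or 2 red blood cell markers was called. Cpa3, a mast cell protease, measured 5.27, 4.51 and 6.16 on the Dlk1+Sca1+ arrays and 3.99, 4.33 and 4.16 on the Dlk1+Sca1- arrays (adjusted p = 0.13), with Dlk1+Sca1+ replicate 3 the highest and replicate 2 the lowest of its group. Without replicate 2 it was called (difference 1.56, adjusted p = 0.0181), as 1 of 2 mast cell calls. Mast cell markers averaged 4.18 to 4.78 on the Dlk1+Sca1+ arrays and 3.91 to 4.08 on the Dlk1+Sca1- arrays, below the median gene, with 9 of 10 differences above 0. Tek, the receptor Tie2 of endothelium and some mesenchymal cells, was the only call among 15 endothelial markers, at 6.53, 6.30 and 7.36 on the Dlk1+Sca1+ arrays and 5.17, 5.03 and 5.35 on the Dlk1+Sca1- arrays (difference 1.55 ± 0.25, adjusted p = 0.00976), while the list averaged 5.07 to 5.41 on the Dlk1+Sca1+ arrays and 5.18 to 5.33 on the Dlk1+Sca1- arrays. Pericyte markers averaged 6.43 to 6.74 on the Dlk1+Sca1+ arrays and 6.57 to 7.01 on the Dlk1+Sca1- arrays with 1 fall in 12, that of Mcam, and skeletal muscle markers 5.31 to 5.38 on the Dlk1+Sca1+ arrays and 5.43 to 5.48 on the Dlk1+Sca1- arrays with 1 fall in 24, that of Tnnt1. Of 32 cell cycle genes Ube2c alone was called, at 7.46, 7.27 and 7.99 on the Dlk1+Sca1+ arrays and 8.40, 8.53 and 8.40 on the Dlk1+Sca1- arrays (difference -0.87 ± 0.17, adjusted p = 0.0311). Tek lost its call without Dlk1+Sca1- replicate 1, and with all 12 arrays (adjusted p from 0.05 to 0.0593). Ube2c lost it without any 1 of Dlk1+Sca1- replicates 1 and 2, Dlk1+Sca1+ replicates 1 and 2 or CD26+ replicate 1, and with all 12 arrays and with only the 6 arrays compared (adjusted p from 0.0547 to 0.135). Mcam (difference -0.98 ± 0.22) lost it as given above for the surface antigens. Tnnt1 (difference -0.98 ± 0.22) lost it without any 1 of Dlk1+Sca1- replicates 1 and 2, Dlk1+Sca1+ replicates 1, 2 and 3, Dlk1-Sca1+ replicates 1 and 2 or CD26+ replicates 1 and 3, and with all 12 arrays, with only the 6 arrays compared, after median centring, after quantile normalisation and with no mean trend or robust fitting (adjusted p from 0.0501 to 0.196). Without Dlk1+Sca1- replicate 3 there were 2 falls of pericyte markers and 1 of an endothelial marker.

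The series holds another pair of a Sca1+ and a Sca1- population, Dlk1-Sca1+ with 2 arrays and CD26+ with 3, which share no array with the comparison above. These also differ in the CD26 gate. Of the 144 rises 116 (80.6%) had a positive difference in that pair, as 48.0% of all genes did, with a median of 0.37. Of the 130 falls 96 (73.8%) had a negative difference there, as 52.0% of all genes did, with a median of -0.22. Cd36 differed by 3.99 and Akr1c18 by 2.92 in the other pair, close to their 4.32 and 2.98 here. Pparg differed by 1.72, Aoc3 by 2.56 and Fabp4 by 4.26. Pf4, by contrast, differed by -0.01 and Lgr5 by 0.02. Among falls the values were smaller, with Rspo3 at -0.47, Trps1 at -0.31, Robo1 at -0.38 and Prex2 at -0.5, and Col11a1 and Adamts18 went the other way at 1.04 and 1.63. The comparison of the pairs was chosen after values were seen. The arrays on which the calls of Pparg, Aoc3, Lgr5, Col11a1 and Adamts18 rest are given above.

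**Figure D5:**
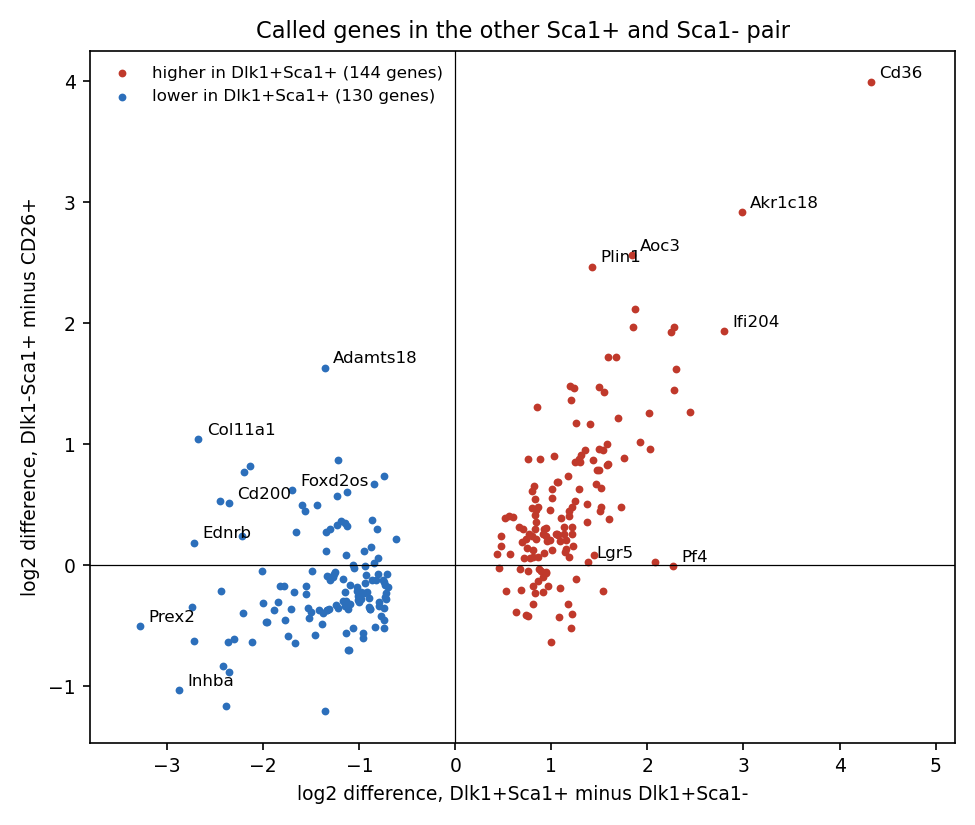
Log2 difference of Dlk1-Sca1+ minus CD26+ (vertical axis) against that of Dlk1+Sca1+ minus Dlk1+Sca1- (horizontal axis) for the 274 called genes, red for the 144 rises and blue for the 130 falls. Of the rises 116 lie above 0 on the vertical axis, and of the falls 96 lie below it.

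The difference between the pairs was itself tested. At an adjusted p of 0.05, 1 gene of 22180 differed (0.00451%). An unadjusted p under 0.05 was reached by 1309, a level that a share of 0.05 of genes reaches where none differ. The 1 gene called was Foxd2os, a noncoding RNA gene beside Foxd2, chosen here because it was the only call. It measured 5.03, 5.06 and 4.65 on the Dlk1+Sca1+ arrays and 6.78, 6.65 and 6.40 on the Dlk1+Sca1- arrays, a difference of -1.70 ± 0.19 (adjusted p = 0.00081), against 6.36 and 6.24 on the Dlk1-Sca1+ arrays and 5.44, 5.96 and 5.63 on the CD26+ arrays. The difference of differences was -2.32 ± 0.28 (adjusted p = 0.0317). The number of such calls was 37 with Dlk1+Sca1- replicate 3 left out, 4 with Dlk1-Sca1+ replicate 2 left out, and 0 when the array left out was Dlk1+Sca1- replicate 1 or 2, any of the Dlk1+Sca1+ arrays, or CD26+ replicate 1 or 3. For Cd36, Pparg, Akr1c18 and Il6 the differences of differences were 0.33, -0.05, 0.07 and 0.02, and were not called.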

How the data were processed

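The authors deposited log2 expression values for each probe set on each array. Their summarisation and normalisation were not given in the sources used here. Values ran from 1.41 to 14.05, and no further normalisation was applied. In the platform annotation 23521 of 41345 probe sets bore 1 gene symbol, 1820 several and 16004 none. The probe set with the highest mean over the 12 arrays stood for each of 22180 genes, 1082 of which had more than 1. Positions, for 21994 genes, and promoters are those of RefSeq on GRCm38.p6.

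A mean per population was fitted to 11 arrays with limma (version 3.58.1, R 4.3.3, statmod 1.5.0), with a mean trend, robust fitting and 7 residual degrees of freedom. Tests were two-sided, and genes were called at a Benjamini-Hochberg adjusted p of 0.05. The fit was run on simulated data with independent noise for each gene and array. Such data hold no effect shared by an array or a replicate number, so they say nothing of those. P-values measure the spread between arrays labelled biological replicates, from different mice according to the study. Dim signals are compressed on arrays, so log2 differences of dim genes understate the change, and the number of arrays limits the precision. Dlk1-Sca1+ replicate 3 was left out because it had the highest Dlk1 of its group (8.69 against 8.09 and 8.32) and correlated more with Dlk1+Sca1+ (mean r 0.06) than with its own group (-0.07). No 2 arrays were identical. The study's methods describe no pairing of these arrays, and the replicate numbers were not taken as pairs. Deviations of same-numbered arrays of Dlk1+Sca1+ and Dlk1+Sca1- correlated with r from -0.04 to 0.06. These few values from 1 pair of populations do not settle whether the numbers mark pairs. A fit with the number as a block is among the alternatives.

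Genes named were drawn from the 15 largest rises and 15 largest falls with non-overlapping arrays. They were also drawn from up to 6 called members of each of 43 lists and the brightest members of lists with no call. Gate and study genes, Cd36 and Pparg were added, and predicted genes, small RNAs and receptor repertoires were passed over. Some of those drawn are not described, among them the called Akap12, Adgrd1, Foxd1 and Sox11. The uncalled study genes Tcf4, Fbn1, Chodl and Nrk are not described either, although Tcf4 was called in some alternatives. The lists of dermal mesenchyme transcription factors (2 of 47 lower), integrins (1 of 25 lower) and collagen processing and crosslinking (2 of 20 higher) are also left out as lists. Other genes were chosen after their values were seen, and some are marked so where they appear. Called genes without that mark include Efhd1, Limch1 and Myl9. Uncalled ones include Cebpa, Plin2, Adipoq, Bmp4, Acta2, Ccl2, Adgre1, Ptprc, Cd68 and Col1a1. The comparison and the lists, with 938 distinct genes measured, were chosen with earlier results of these data known. Of each list the number called and the median difference were taken, with no set test. Members of a list were measured on the same arrays, so the signs of their differences are not independent of each other. Over all genes 0.649% were called higher and 0.586% lower, and a single call in a list describes that gene only. These shares are not matched for level, and the lists differed in it. Below the median level lay 0 of 17 elastic fibre, 1 of 24 contractile and 24 of 34 macrophage members. Alternatives covered the arrays fitted, a replicate block, scaling, a filter on dim genes, the probe set rule, the moderation and array weights.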

Additional observations from a re-analysis of the deposited data

Results flagged for a closer look

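Foxd2os had a log2 difference of differences of -2.32 ± 0.28 (limma, adjusted p = 0.0317), since its level fell with Sca1 in the Dlk1+ cells and did not in the other pair of populations. All 3 Dlk1+Sca1+ arrays lay below all 3 Dlk1+Sca1- arrays, and both Dlk1-Sca1+ arrays lay above all 3 CD26+ arrays. No group held more than 3 arrays, so no array was compared with its own group for distance.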

How the results depend on the processing

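The 274 calls became 118 in a fit of the 6 compared arrays alone and 99 to 355 when single arrays were left out. Other alternatives gave 200 to 337. Calls higher were 52.6% of the total, 60.6% after median centring and 43.7% after quantile normalisation. With the replicate number as a block 337 genes were called, of which 254 were shared. Over all pairs of populations, deviations of same-numbered arrays correlated with r from -0.04 to 0.14. The highest value was that of replicate 2 of CD26+ and Dlk1+Sca1-. For differently numbered arrays r ran from -0.14 to 0.07. Whether the numbers mark paired samples was not tested. The difference between the pairs gave 1 call, 3 with all 12 arrays, 13 with the replicate block, 3 after quantile normalisation, 7 without the dimmest 40% of genes, 16 with array weights and 0 to 37 with single arrays left out. No called gene changed direction among the 104 named ones, and 36 of them were called in every alternative. The median difference of 10 of the 43 lists changed sign in some alternative. Reversed differences were of uncalled genes near 0. With single arrays left out the ranges were Gli1 -0.16 to 0.030, Meg3 -0.057 to 0.21, Ms4a2 -0.047 to 0.14, Kit -0.065 to 0.22, Trp63 -0.049 to 0.19, Pmel -0.073 to 0.26, Dct -0.10 to 0.52 and Slc4a1 -0.10 to 0.12. After quantile normalisation Meg3 was -0.050 and Rian -0.013. The causes were not tested. With 3 arrays per population, sample size limits all of these values.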
